A study of Zea mays with 112 samples.

Results

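WRKY47 (Zm00001d011403), WRKY92 (Zm00001d010399) and WRKY48 (Zm00001d015515) were the 3 of 20 maize WRKY factors whose strongest binding sites overlapped least with those of the rest of the family. They were chosen by the overlap itself: for each pair of WRKY lists, the percent of the 5000 peaks with the highest signal that had a summit of the other list's top 5000 within 100 bp was averaged over both directions, and a factor was taken when its mean over the other 19 WRKY lists was under 40%. That sharing is therefore a description of the choice and was not tested. The other 17 WRKY lists are called the remaining lists below, and the series also held 92 lists of factors outside WRKY, 1 list per factor.

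The binding sites were measured in vitro by ampDAP-seq, in which a Halo-tagged factor made in a wheat germ extract is bound to beads, captures fragments of a PCR-amplified genomic DNA library, and leaves the captured fragments to be sequenced. All lists used DNA of the inbred line B73, from leaf at 14 DAG, cloned full-length coding sequences, and a control of the empty Halo vector. Each factor had a single list and no replicate, so differences between factors could not be set against the spread of repeat experiments on a factor. The amplified DNA carries neither chromatin nor methylation, and the lists report where a factor could bind naked DNA rather than where it sits in a plant cell.

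WRKY factors are plant regulators named after a conserved amino acid motif in their zinc-finger DNA-binding domain. Most of them recognise the W-box, a short element with the core TTGAC, which reads GTCAA on the opposite strand, and they are best known from defence, senescence and seed development. Since the domain is so alike across the family, members usually bind overlapping sites in vitro, and flanking bases account for part of the preference of each factor.

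The motif letters assigned to each factor in the study are shown first for the 3 factors and then for 6 of the remaining lists, because they show how far each factor stands from the W-box on paper. The sequences run 5′ to 3′, capitals mark a complete W-box core on either strand, r stands for A or G and w for A or T.
WRKY47: ttcttcgctt
WRKY92: agwcaac
WRKY48: craaaagtc
WRKY67: gTTGACttttcg
WRKY105: cgaaaaGTCAAc
WRKY72: aaGTCAAcgctg
WRKY93: aaaagtc
WRKY102: atcagcgttg
WRKY71: ttcttcgcctt

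Of the 17 remaining lists, 11 had a complete core spelled out in their motif letters. Of the 3 factors, only WRKY92 had letters that admit it, when w is read as T. The WRKY92 letters, with either base at w, occurred in the motifs of 10 remaining lists, and the WRKY48 letters, with either base at r, in those of 4. The WRKY47 letters occurred in none of the 17. Their longest run in common with a remaining motif was 8 letters, in WRKY71. This absence was not particular to WRKY47, since the whole letters of WRKY71 and WRKY8 also occurred in no other WRKY motif. The same held for WRKY14, WRKY50, WRKY72, WRKY79 and WRKY94, whose letters include a complete core. The motifs differed in length, which bears on such matches. These are letters of short consensus motifs, 1 for each factor. The genome sequence behind the peaks was not used here, so no W-box was counted in the peaks themselves.

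Mean sharing was 19.6% for WRKY47, 32.7% for WRKY92 and 37.5% for WRKY48. The lists just outside the threshold were WRKY67 at 42.5%, WRKY105 at 44.04% and WRKY72 at 47.2%, and the highest mean was that of WRKY93 at 58.2%. The 3 factors did not form a group of their own. WRKY47 shared 15.2% with WRKY92 and 14.1% with WRKY48, and WRKY92 and WRKY48 shared 35.3%. The 136 pairs of remaining lists ran from 28.1 to 80.9%, with a mean of 56.5% ± 10.7 (SD over pairs, which share lists).

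Within the family, the closest list to WRKY47 was WRKY105 at 36.6%, followed by WRKY94 at 26.1% and WRKY123 at 25.5%. The next was WRKY102 at 22.9%. WRKY92 was closest to WRKY72 at 46.4%, WRKY1 at 43.3% and WRKY37 at 36.1%. WRKY48 was closest to WRKY72 at 47.4%, WRKY93 at 47.1% and WRKY1 at 46.1%. WRKY72 and WRKY1 thus stood near both WRKY92 and WRKY48, whereas the neighbours of WRKY47 were 3 other lists.

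**Figure D1:**
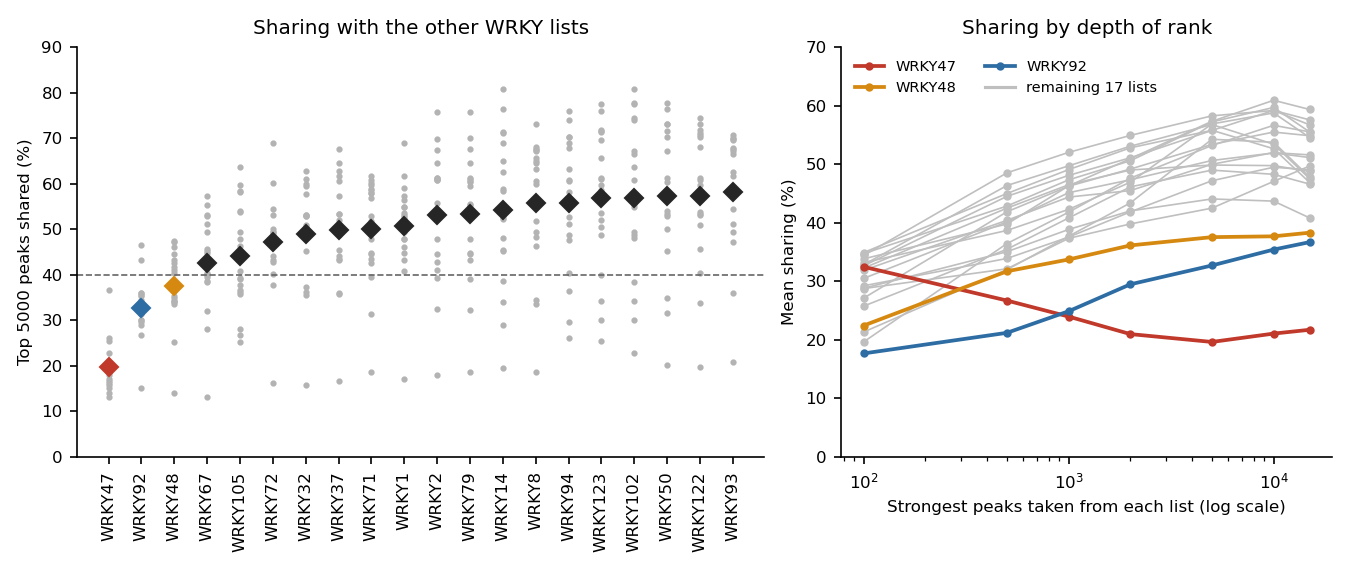
Left, percent of the top 5000 peaks shared with each other WRKY list (grey points, 19 for each list) and their mean (diamonds), with lists ordered by the mean and the threshold of 40% dashed; right, mean sharing against the number of strongest peaks taken (log scale). WRKY47 starts among the remaining lists at 32.4% with 100 peaks and falls to 19.6% with 5000, whereas WRKY92 rises from 17.7 to 32.7% and WRKY48 from 22.4 to 37.5%.

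WRKY92 diverged nearer the top of its list than WRKY47 and WRKY48 did. With only the 100 strongest peaks, WRKY47 shared 32.4%, inside the 19.6 to 34.9% of the remaining lists, and WRKY48 shared 22.4%, also inside that range. WRKY92 was below it at 17.7%. With 500 peaks WRKY47 was at 26.7%, WRKY92 at 21.2% and WRKY48 at 31.7%, all under the lowest remaining list at 31.97%. With 1000 peaks WRKY47 had dropped to 23.95%, and WRKY92 and WRKY48 had risen to 24.9 and 33.7%, all under the lowest remaining list at 37.3%. With 15000 peaks WRKY47 was at 21.7%, WRKY92 at 36.7% and WRKY48 at 38.3%, against 40.8 to 59.3%. At its very top WRKY47 thus shared as much as remaining lists did, and WRKY92 shared less than any of them.

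A single locus stood at or near the head of all 3 lists. On chromosome 1 of the B73 v4 assembly the strongest peak of WRKY92 had its summit at 302058057 with a signal of 778, and that of WRKY48 at 302058036 with a signal of 5150. The second peak of WRKY47, with a signal of 288, had its summit at 302058164. All 17 remaining lists had a summit within 200 bp of the WRKY92 summit, at ranks from 1 to 162. This locus was picked after its values were seen. Gene annotation of that assembly was not used here.

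The signal of a peak list bears on such ranks. WRKY47 was a weak list, with 37753 peaks, a signal of 60.2 at rank 5000 and a −log10 q of 7.08 there, lower than in any remaining list (8.59 to 184). WRKY92 was the longest of the 20 WRKY lists with 211449 peaks and had a signal of 176 at rank 5000, and WRKY48 had 128346 peaks and a signal of 382. WRKY14, with 17026 peaks, a signal of 48 and a −log10 q of 8.59 at rank 5000, had a mean sharing of 54.2%. WRKY94, at a signal of 62 and a −log10 q of 12.98, had 55.8%. The part of list strength in the sharing was not tested. The read depth behind the lists is unknown.

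What the 3 factors missed was asked at 2089 core loci, places where at least 13 of the 17 remaining lists had a top peak. WRKY47 held 823 of them in its top 5000 (39.4%, 95% Wilson interval 37.3 to 41.5), WRKY92 held 1219 (58.4%, 56.2 to 60.5) and WRKY48 held 1480 (70.8%, 68.9 to 72.8). Each remaining list, set against core loci redrawn without it, held 72.8 to 95.2%, the lowest being WRKY67. A low share of core loci in the top 5000 largely follows from the way the factors were chosen and is given as a description. The intervals here cover counting error over loci only.

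Most of the missing core loci were present further down. In its whole list WRKY92 had a summit at all but 2 core loci and WRKY48 at all but 4, which is within the 0 to 29 missed by remaining lists. WRKY47 lacked 195 (9.33%, 8.16 to 10.7), more than any remaining list. The median rank of a core locus was 6361 in WRKY47, 4007 in WRKY92 and 2282 in WRKY48, against 1232 to 2557 in the remaining lists. WRKY47 and WRKY92 therefore ranked the core loci lower than any remaining list did, and WRKY48 ranked them within the range of those lists.

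No core locus was missed by all 3 factors (0 of 2089, which allows a share of up to 0.144%). The core loci with a top peak in all 17 remaining lists and the best mean rank among those WRKY47 lacked were on chromosome 3 (summits 95170991 to 95171269, mean rank 605), chromosome 4 (17706126 to 17706305, mean rank 617) and chromosome 8 (60108494 to 60108603, mean rank 658). These were strong family sites with a WRKY92 and a WRKY48 summit but no peak of WRKY47.

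**Figure D2:**
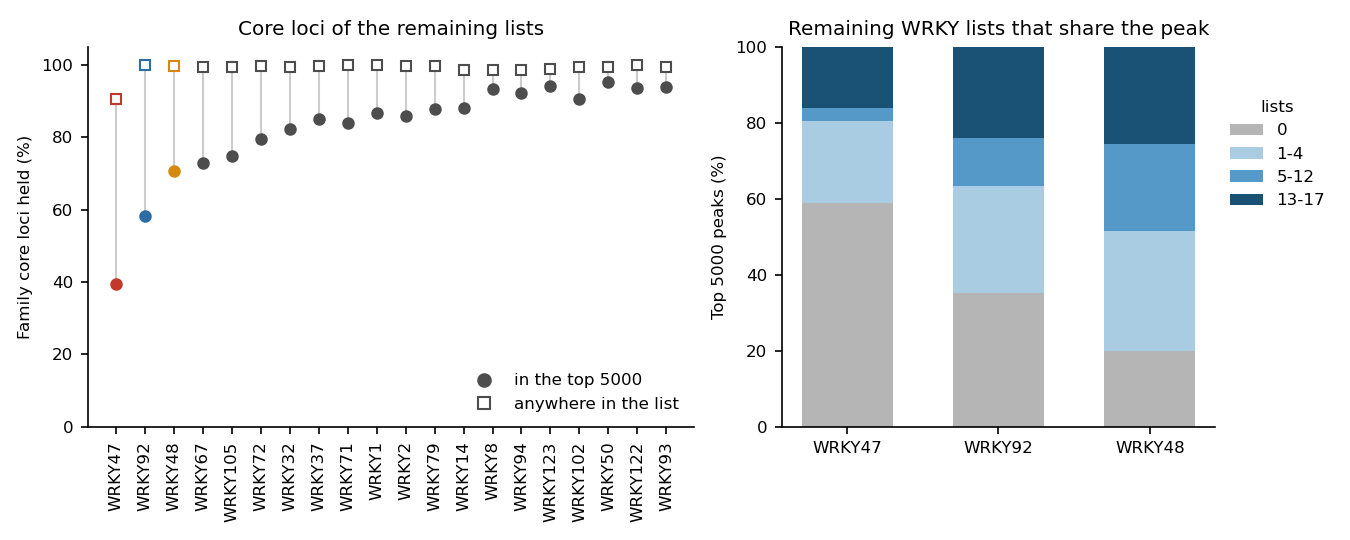
Left, percent of family core loci with a summit in the top 5000 (filled) and anywhere in the list (open) for each WRKY list, ordered as by mean sharing; right, percent of each factor's top 5000 peaks by how many of the 17 remaining lists share them in their own top 5000. The filled points of WRKY47, WRKY92 and WRKY48 sit at 39.4, 58.4 and 70.8%, below all remaining lists, and the open point of WRKY47 is the lowest at 90.7%.

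The reverse question was what sites the factors added. Of the top 5000 peaks of WRKY47, 2944 (58.9%, 57.5 to 60.2) had no top-5000 summit of a remaining list, against 1755 (35.1%, 33.8 to 36.4) for WRKY92 and 998 (19.96%, 18.9 to 21.1) for WRKY48. The remaining lists had 1.26 to 32.8% by the same count, the highest being WRKY105, so WRKY48 lay inside their range. When the whole remaining lists were searched, 10.3% (9.49 to 11.2) of WRKY47's top peaks were still without a summit nearby, against 0.36% for WRKY92, 0.30% for WRKY48 and 7.74% for WRKY105. The top peaks of 92 lists outside WRKY had 15.6 to 99.1% beyond reach of the remaining WRKY lists, with a median of 83.5%. The sites of WRKY92 and WRKY48 were thus almost all shared with the family at some rank.

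The added sites of WRKY47 began near the top of its list. Peaks without a remaining top-5000 summit made up 31.7% of its first 1000 ranks and 73.8% of ranks 4001 to 5000. The same share ran from 17.7 to 44.7% in WRKY92 and from 6.0 to 35.6% in WRKY48. Peaks shared by 13 or more remaining lists showed the opposite course, from 30.8 to 11.5% in WRKY47 and from 43.3 to 13.9% in WRKY48. WRKY47 also had few peaks of intermediate sharing: 16.1% of its peaks were shared by 13 or more remaining lists and 3.46% by 5 to 12. In WRKY48 these shares were 25.5 and 22.8%.

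The strongest peaks without any summit of a remaining list on chromosomes 1 to 10 stood near the head of the WRKY47 list and further down in the other lists. For WRKY47 they were on chromosome 5 (110044760 to 110044960, rank 96, signal 154), chromosome 6 (64188117 to 64188317, rank 166, signal 133) and chromosome 8 (78906884 to 78907084, rank 182, signal 130). Summits of 14, 12 and 2 lists outside WRKY lay within 100 bp of them. For WRKY92 they were on chromosome 2 (242541963 to 242542163, rank 581, signal 286), chromosome 6 (173413088 to 173413288, rank 2196, signal 217) and chromosome 8 (27250 to 27450, rank 2394, signal 213), and no list outside WRKY had a summit there. For WRKY48 they were on chromosome 1 (167006718 to 167006918, rank 1571, signal 626; and 120314491 to 120314691, rank 1810, signal 593) and chromosome 6 (10555246 to 10555446, rank 2183, signal 550). At 8 of these 9 peaks the nearest summit of a remaining list lay 133 to 363 bp away, outside the window of 100 bp. The exception was the second WRKY48 peak, with none nearer than 15049 bp.

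The partners outside WRKY set WRKY47 apart from the other 2 factors. Its closest were MADS53, a MADS-box factor, at 28.8%, and EREB118 and EREB102, factors of the AP2/ERF class, at 27.4% each. HB96, a homeobox factor, shared 25.4% with it. The remaining lists had medians of 0.02% with MADS53, 0.18% with EREB118 and 0.04% with EREB102, and the highest was WRKY105 in each case, at 15.3, 15.99 and 13.6%. WRKY47 shared more than every remaining list with 43 of the 92 outside lists, against 9 for WRKY92 and 5 for WRKY48. Some of the 43 rested on very few peaks, such as THX47 at 0.12% against at most 0.06%. The count reads the peaks that had chosen the factors and was not tested. WRKY47 shared over 5% with 23 outside lists and WRKY105 with 22. At a share of at least 10%, WRKY47 had 18 outside lists. WRKY105 had 10 at that share, and each of the other remaining lists 3 or 4.

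The closest outside partners of WRKY92 and WRKY48 were those of the family, mostly at lower levels. ZmOrphan110 shared 28.1% with WRKY92 and 27.8% with WRKY48, below the 34.2 to 59.3% of the remaining lists. PBF1, the DOF factor that binds the prolamin box of storage protein genes in the endosperm, shared 21.3 and 20.7%, inside the remaining range of 17.7 to 38.1%. DOF36, of the same class, shared 18.9 and 14.6%, below the 19.9 to 32.6% of the remaining lists. WRKY47 was lower still with ZmOrphan110 at 18.6%. Further down, WRKY92 had partners that were rare in most of the family. It shared 4.29% with GATA24, 4.00% with MADS53 and 3.58% with NACTF49, against remaining medians of 0, 0.02 and 0.04%. WRKY105 was higher with GATA24 and MADS53, at 12.97 and 15.3%. No remaining list passed 0.99% with NACTF49.

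**Figure D3:**
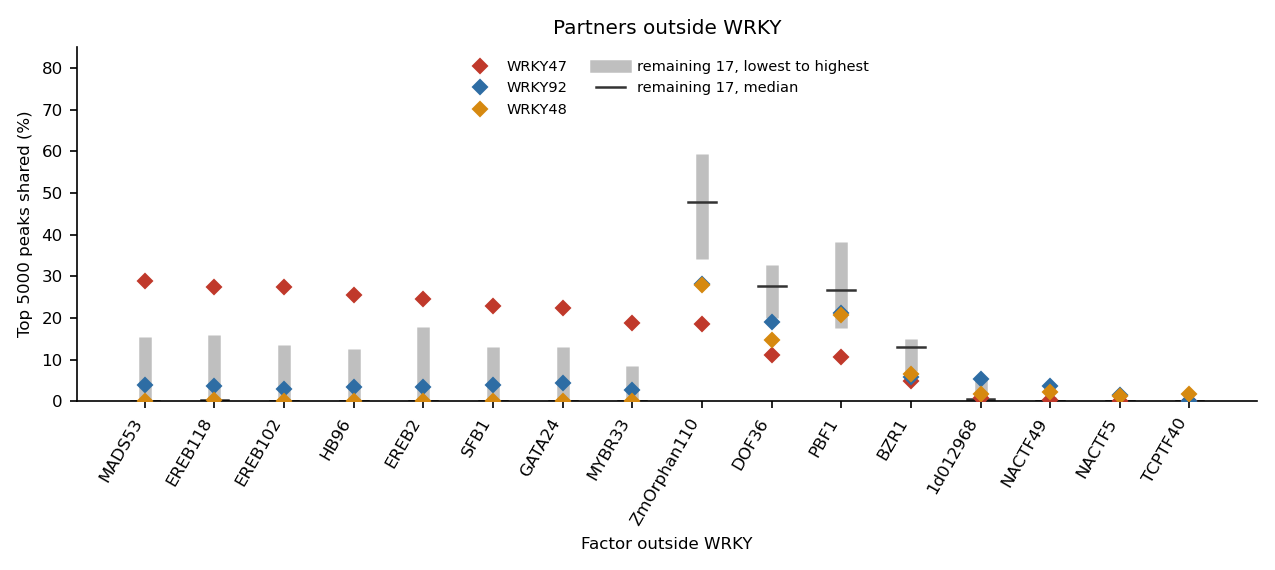
Percent of top 5000 peaks shared with lists outside WRKY, for every list among the 8 closest of any of the 3 factors; grey bars span the 17 remaining lists and black ticks are their medians. WRKY47 lies above the grey bars with MADS53, EREB118, EREB102, HB96 and others, and all 3 factors lie below the bar with ZmOrphan110.

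In each factor the shares of some partners differed between classes of site. At the 806 WRKY47 peaks shared by 13 or more remaining lists, 92.8% had a ZmOrphan110 top peak, 76.1% a WRKY48 top peak and 72.5% a WRKY92 top peak. At its 2944 peaks outside the remaining top lists, 29.2% had a MADS53 peak and 28.0% an EREB102 peak, while 1.77% had a WRKY92 peak and none a WRKY48 peak (0 of 2944, which allows a share of up to 0.102%). The WRKY47 peaks in neither class, 1077 held by 1 to 4 remaining lists and 173 held by 5 to 12, had a WRKY92 top peak at 9.01 and 20.2%. Shares of MADS53 and EREB102 at these peaks are not given here.

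Many of the WRKY47 sites were also top sites of several outside lists. Of all WRKY47 top peaks, 27.9% had a top peak of 6 or more outside lists, against 4.60% in WRKY92, 0.08% in WRKY48 and 0.02 to 15.9% in the remaining lists, the highest being WRKY105. At its 2944 peaks outside the remaining top lists the share was 24.97%. This was not particular to WRKY47: the same class of peaks had 51.1% in WRKY123 (274 peaks), 44.7% in WRKY94 (338 peaks) and 39.3% in WRKY105 (1642 peaks), its 3 closest lists in the family. Within WRKY47 it was 61.1% at peaks held by 1 to 4 remaining lists and 0.12% at those held by 13 or more. With loci of 6 or more name stems left out, the mean sharing of WRKY47 was 23.7% and that of WRKY92 33.7%, still the lowest of the 20 lists. The part that such common loci play in the WRKY47 list was otherwise not tested.

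At WRKY92 peaks outside the remaining top lists the most frequent partner was WRKY48, with 8.77%, followed by GATA24 with 6.27% and NACTF49 with 5.64%. Of all 5000 WRKY92 top peaks, 34.4, 4.34 and 3.48% had these partners. At WRKY48 peaks of the same class it was WRKY92, with 15.4%, followed by TCPTF40 with 9.22% and NACTF49 with 8.32%. Of all 5000 WRKY48 top peaks, 36.2, 1.86 and 2.14% had these partners. TCP and NAC proteins are plant-specific families with DNA-binding domains unrelated in sequence. Averaged over both directions, TCPTF40 shared 1.74% of top 5000 peaks with WRKY48, 0.02% each with WRKY47 and WRKY92, and at most 0.04% with a remaining list.

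Averaged over all 92 outside lists, sharing was 4.57% for WRKY47, 1.76% for WRKY92 and 0.93% for WRKY48, against 1.04 to 3.17% in the remaining lists. WRKY47 was above all of them and WRKY48 below. The mean was 2.42% ± 1.91 (SD, n = 3) for the 3 factors and 1.52% ± 0.51 (SD, n = 17) for the remaining lists, a difference of 0.90 percentage points that was −0.18 without WRKY47 and 1.64 without WRKY48. These are the peaks that had chosen the factors, so the values are a description. Over the next 5000 ranks, with the 86 outside lists long enough to have them, the difference was 0.20 percentage points and did not pass (two-sided exact permutation test over lists, p = 0.565).

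Where a pair of factors shared a site, their summits stood at fixed distances from each other. WRKY92 summits lay 4 bp from the WRKY93 summit at 61.8% of 1658 shared peaks, and WRKY48 summits lay 8 bp from it at 45.9% of 2306. WRKY47 had a pair of preferred distances from WRKY93, 18 bp at 31.7% and 16 bp at 21.6% of 920 shared peaks. The same was seen with most of the family. With WRKY1 and WRKY72 the distances were 19 and 15 bp, with WRKY8, WRKY37 and WRKY79 they were 27 and 7 bp, and with WRKY102 they were 33 and 1 bp. The 2 most frequent distances of WRKY47 added up to 34 bp in 17 of its 19 pairs, and together took 30.9 to 55.9% of the shared peaks in these. A repeated sum was also found in remaining lists: it was 42 bp in 14 of 19 pairs of WRKY1, in 13 each of WRKY8, WRKY71 and WRKY93 and in 12 each of WRKY72 and WRKY102, and the 4 and 38 bp of WRKY92 and WRKY93 gave it too. The exceptions for WRKY47 were WRKY94 and WRKY123, and WRKY47 and WRKY123 had the same base as summit at 43.8% of shared peaks.

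These distances were described for shared peaks only, and they bear on any narrower window. The median distance between summits of WRKY47 and a remaining list ran from 7 to 33 bp, that of WRKY48 from 1 to 41 bp and that of WRKY92 from 2 to 32 bp, against 0 to 36 bp within pairs of remaining lists. Counted within 20 bp, mean sharing was 7.25% for WRKY47, 16.8% for WRKY48 and 18.2% for WRKY92, and WRKY94, a remaining list, was lower than all 3. The low sharing of these factors as a set therefore held for a window of 50 or 100 bp and not for 20 bp.

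**Figure D4:**
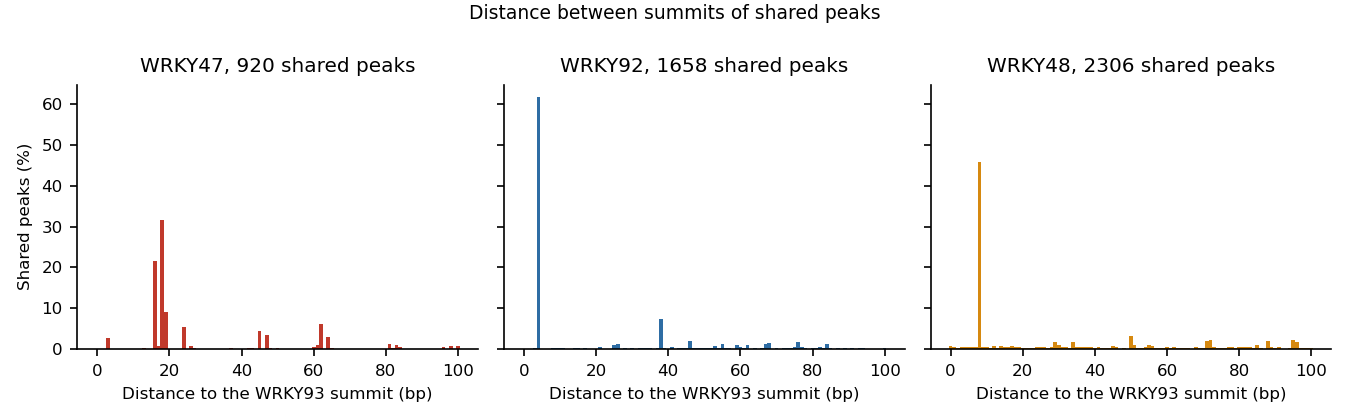
Distance in bp between the summits of shared top peaks of each factor and WRKY93, the list with the highest mean sharing, as percent of the shared peaks. WRKY92 has its main distance at 4 bp (61.8%) and a lower second at 38 bp (7.42%), WRKY48 has 8 bp (45.9%) and 50 bp (3.30%), and WRKY47 has 18 bp (31.7%) and 16 bp (21.6%).

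Peaks of the 3 factors lay nearer to the chromosome ends. The outer 25% at each end of chromosomes 1 to 10, taken over the length the peaks cover, held 51.2% of the top 5000 peaks of WRKY47, 53.6% of those of WRKY92 and 50.2% of those of WRKY48, against 40.3 to 49.7% in the remaining lists. Those peaks had chosen the factors, so the test used the next 5000 ranks of each list. There WRKY47 had 50.1%, WRKY92 50.6% and WRKY48 48.7%, and the remaining lists 38.8 to 50.1%, of which 2, WRKY71 and WRKY105, passed the lowest of the 3. The means were 49.8% ± 0.96 (SD, n = 3) and 44.8% ± 3.04 (SD, n = 17), a difference of 5.07 percentage points (two-sided exact permutation test, p = 0.00789, adjusted p = 0.0395 over 5 tests). The call was lost without WRKY92 (4.68 points, exact permutation p = 0.0526) and over all peaks (1.39 points, exact permutation p = 0.272).

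The position went with the class of site. The core loci were 42.8% outer. Peaks shared by 13 or more remaining lists were 43.4, 43.5 and 44.7% outer in WRKY47, WRKY92 and WRKY48. The remaining lists had 40.9 to 43.9%, at peaks shared by at least 75% of the other remaining lists. Peaks outside the remaining top lists were 51.9, 58.6 and 50.2% outer. A higher outer share at such peaks was also seen in remaining lists, up to 57.3% in WRKY72, although the lowest was 30.7% in WRKY50. Over 92 lists outside WRKY the median outer share of the top 5000 was 51.9%, so the 3 factors were close to the usual level of other factors and the family core was below it.

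**Figure D5:**
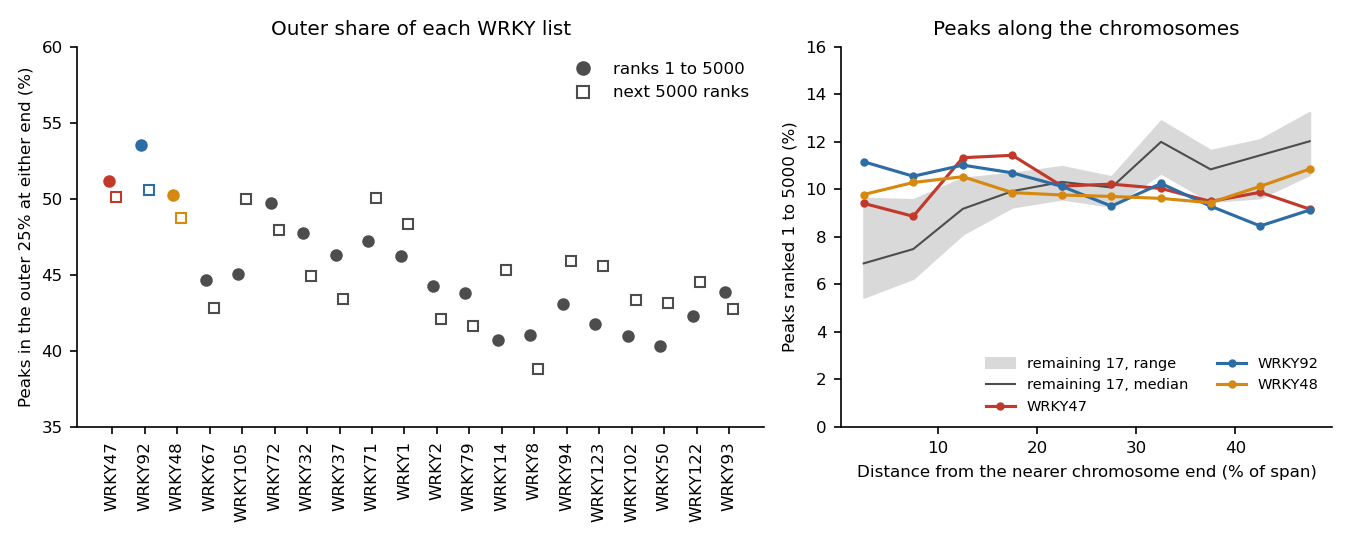
Left, percent of peaks lying in the outermost 25% of chromosomes 1 to 10, counted from each end, for ranks 1 to 5000 (filled) and the next 5000 ranks (open), with the axis starting at 35%; right, percent of the top 5000 peaks by distance from the nearer chromosome end, with the grey band spanning the 17 remaining lists. In the outermost 5% WRKY92 has 11.2%, WRKY48 9.78% and WRKY47 9.41% of peaks, against 5.46 to 9.63% in the remaining lists (median 6.88%), so WRKY47 lies inside their range.

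Differences in the length of the lists and in the crowding of their summits did not pass the test. The mean of log10 peak number was 5.004 ± 0.38 (SD, n = 3) against 4.74 ± 0.30 (SD, n = 17), a difference of 0.26 (exact permutation p = 0.195, adjusted p = 0.325), which rose to 0.48 without WRKY47 (exact permutation p = 0.0468). Among the 5000 peaks ranked next, 24.2% in WRKY47, 35.7% in WRKY92 and 71.6% in WRKY48 had another summit of the same list within 500 bp, against 14.96 to 78.5% in the remaining lists. The difference of means was −13.2 percentage points (exact permutation p = 0.271, adjusted p = 0.339). It was −27.1 without WRKY48 (exact permutation p = 0.0409). The most frequent spacing of neighbouring summits up to 1000 bp apart was 80 bp in WRKY47 and WRKY48 and 69 bp in WRKY92, and took 1.89, 2.86 and 2.29% of spacings. Each of these shares was below the 3.11 to 25.7% of the remaining lists at their own most frequent spacing, a comparison that was not tested.

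The leading digits of the run identifiers, whose meaning the sources used here do not give, were 19 for WRKY92 and 4 remaining lists and 20 for WRKY47, WRKY48 and 13 remaining lists (Fisher's exact test, two-sided, p = 1). Mean sharing with remaining lists that agreed in the first 5 digits was 19.8% for WRKY47 (8 lists), 36.4% for WRKY92 (3 lists) and 38.7% for WRKY48 (8 lists). With the others it was 20.5, 32.96 and 39.3%. Among the remaining lists it was 37.6 to 64.4% with like identifiers (16 lists) and 42.8 to 62.2% with the others. WRKY48 thus lay inside the first range. These values come from the sharing that had chosen the factors, and a part of the runs in it was not tested. With lists of the digits 20 alone, the outer-end difference was 4.84 percentage points (exact permutation p = 0.0857).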

How the data were processed

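Lists of peaks of 112 factors were analysed, 20 of them WRKY. According to the methods, the authors trimmed reads with Trimmomatic 0.39, aligned them to B73 v4 with Bowtie2 2.4.1, removed duplicates with Picard and called peaks with GEM against the empty-vector control (fold of at least 3), 1 list per factor with no pooling. The deposited lists hold 201 bp intervals with the signal of each peak, its −log10 p and −log10 q (3 or more in the WRKY lists, capped at 999), and a score, which was not used. Depth is unknown.

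Peaks were ranked by signal and the summit was taken 100 bp into the interval. WRKY lists were grouped by title. Members and lists were chosen with earlier results of these data known. Tests were two-sided exact permutation tests over the 20 lists (1140 arrangements) and a Fisher test, adjusted by Benjamini-Hochberg over 5 tests. With 1 list per factor, the permutation tests set a difference against the spread between factors and not between repeat experiments. Shares of 5000 peaks have a 95% Wilson half-width of at most 1.39 points, covering counting error only. The code was tested on simulated data. Python 3.11.15, NumPy 2.4.6, pandas 2.3.3 and SciPy 1.17.1 were used.

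The named loci and lists followed a rule: every member, the 3 lists just above the threshold, the 3 closest lists inside and outside WRKY, each member's 3 strongest peaks with no summit of a remaining list within 100 bp, and the 3 core loci in most remaining lists that members lacked. As no core locus was lacked by all members, loci lacked by WRKY47 were named. The motif letters were read from the study's supplementary table. A W-box count in the peaks was not run, since no sequence of the assembly was used here.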

Additional observations from a re-analysis of the deposited data

How the results depend on the processing

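The number of WRKY lists under 40% mean sharing was 3 with the top 10000 peaks and with loci of 6 or more name stems left out, and 4 with the top 2000, each time including WRKY47, WRKY92 and WRKY48. It was 1 with the top 5% of each list (WRKY47), 10 with summits within 50 bp, 20 with summits within 20 bp and 20 with the 5000 peaks ranked next, where sharing fell in all lists. The outer-end difference was 7.60 percentage points with ranks 1 to 5000 and 3.32 with the outer 10%, 1.39 over all peaks and 4.84 with the run digits 20 alone. Alternatives chosen after seeing the data gave 5.31 without peaks at loci of 6 or more stems, and −1.50 for the 5000 peaks of lowest signal (exact permutation p = 0.0851). Leaving out each of the 3 factors in turn gave 4.68 to 5.60 for the outer-end difference, 0.10 to 0.48 for log10 peak number, −0.18 to 1.64 for out-of-family sharing and −27.1 to −3.38 for self-clustering. The out-of-family test on the top 5000 peaks gave 0.90 percentage points (exact permutation p = 0.0956, adjusted p = 0.239). Those peaks had chosen the factors, so this test cannot decide the question. It is given only because it was 1 of the 5 tests adjusted together. Self-clustering counted within the top 15000 differed by −17.9 percentage points (exact permutation p = 0.0219). Core loci required in all 17 remaining lists numbered 684. Of these, 68.6% were found in the top 5000 of WRKY47, 82.9% in that of WRKY92 and 88.9% in that of WRKY48. At the 2089 core loci with a window of 200 bp, the share was 39.4% in WRKY47, 58.5% in WRKY92 and 74.4% in WRKY48. Sites without a summit of a remaining list within 200 bp were 4.78% in WRKY47, 0.14% in WRKY92 and 0.10% in WRKY48. Against only the top 5000 of those lists, and within 100 bp, they were 58.9, 35.1 and 19.96%. The cause of these shifts was not tested. No paired analysis was possible because a number in a list's name only tells factors of the same stem apart. The W-box alternatives were not run. With 1 list per factor and unknown depth, ranks compare lists of unequal strength.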
